A study of Mus musculus with 18 samples.

Results

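The genes described here are those of glycolysis and glucose transport, together with the genes that move lactate, gate the entry of pyruvate into mitochondria and sense oxygen, in mouse leukaemia cells driven by the MLL-AF9 fusion and carrying Cas9. The list was drawn up by gene name, with earlier results of these data known. Of 36 listed genes, 33 had a mean of at least 1 FPKM (fragments scaled for transcript length and library size) over 18 poly(A) RNA libraries, out of 11550 genes at that level and 23899 in the whole table. Eno2, Ldhb and Pdk2 did not reach that level, with means of 0.075, 0.074 and 0.438 FPKM, and were not tested. The lowest listed gene above it was Pfkfb2, with 5.19 FPKM.

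The study compared cells carrying sgRNAs against the jumonji and zinc finger domains of Jmjd1c, which encodes a protein of the histone demethylase family, with cells carrying an sgRNA against Renilla, a luciferase gene that the mouse genome lacks, and with mock cells. Of the 4 Jmjd1c guides, 2 are named e12.3 and e12.4 and the others e20.1 and e21.1. Each of them, the Renilla guide and mock had 3 libraries. All groups share the MLL-AF9 fusion, Cas9, a primary mouse leukaemia as their source, and culture in RPMI with serum and mouse IL-3. The labels do not say which guide cuts which domain, what the mock cells received or whether a group's 3 libraries are separate cultures. The p-values therefore cover only the scatter among these libraries, which may be technical. In such bulk RNA, fewer cells of a type and less RNA per cell cannot be told apart.

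Glycolysis splits glucose into pyruvate in the cytoplasm. Glucose enters through transporters of the GLUT family, is trapped by hexokinases and committed by phosphofructokinase, and the payoff enzymes from Gapdh to pyruvate kinase return ATP. Pyruvate is then either reduced to lactate and exported by monocarboxylate transporters, or oxidised in mitochondria through the pyruvate dehydrogenase complex, which the PDK kinases switch off. Myeloid cells rely strongly on this route, and many of its genes are direct targets of the hypoxia-inducible factor, whose alpha subunit is marked for destruction by the EGLN prolyl hydroxylases when oxygen is present.

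Jmjd1c itself had 42.2 to 74.4 FPKM in the 12 guide libraries (median 65.0), against 64.2, 85.4 and 85.4 FPKM in Renilla libraries and 71.8, 74.5 and 77.1 FPKM in mock libraries. The groups overlapped, with a log2 difference of -0.29 from Renilla (exact two-sided permutation p = 0.0747). This difference does not check editing, which was not measured here. It had an exact permutation p of 0.0357 without library e20.1 2 and of 0.0440 without Renilla 1. Estimated depth ran from 20.7 M to 181.3 M fragments per library (median 32.1 M). Libraries e12.3 3 and e21.1 3 stood apart from the other 16, and results that rest on them are given with and without them. At an estimated 66.9 M and 75.3 M fragments they were also the deepest after mock 1. The part of depth in their values was not tested. They were singled out by their values, so every p-value without them follows a choice made on these data. In limma 18.1% of all genes tested passed an adjusted p of 0.05 against Renilla without them, and 11.0% with them.

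Several sums of cell state markers moved with the guides. Summed over 12 monocyte and macrophage genes, the 10 guide libraries other than e12.3 3 and e21.1 3 had 235 to 335 FPKM, against 107 to 126 FPKM in Renilla and 114 to 118 FPKM in mock libraries, with Mrc1 under 0.1 FPKM throughout. The 5 primary granule genes in the table summed to 1711 to 3087 FPKM in those guide libraries, against 4496 to 5410 FPKM in Renilla and 4849 to 5111 FPKM in mock libraries. Late neutrophil granule genes summed to 122.6 to 599 FPKM there, against 111 to 196 FPKM in Renilla and 96.8 to 126 FPKM in mock libraries. Mast cell and basophil genes (5 of 7 listed in the table) summed to 69.8 to 89.1 FPKM in those guide libraries, against 87.3 to 96.4 FPKM in Renilla and 80.5 to 90.3 FPKM in mock libraries. The 6 lymphoid genes summed to 3.12 to 4.93 FPKM there, against 5.27 to 6.89 FPKM in Renilla and 6.15 to 6.86 FPKM in mock libraries, with Cd3e under 0.1 FPKM throughout. The 8 erythroid genes in the table summed to 115 to 148 FPKM there, against 120 to 137 FPKM in Renilla and 109 to 113 FPKM in mock libraries. Not every gene moved with its sum. In those guide libraries, genes that overlapped both controls include Cd14 and Fcgr1 of the monocyte list and Camp and Ltf of the late neutrophil list. They also include Cpa3, Mcpt8 and Gata2 of the mast cell list and Cd3d of the lymphoid list. In the lymphoid sum Lck had 1.90 to 3.75 FPKM with those guides, 3.98 to 5.33 FPKM in Renilla and 4.30 to 5.64 FPKM in mock. The part of these sums and genes in the results below was not tested.

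All 3 listed glucose transporters and the pyruvate dehydrogenase kinase gene Pdk3 rose with the Jmjd1c guides against both controls, and the lactate transporter gene Slc16a1 fell. Most core enzymes did not pass the test. For the 4 Jmjd1c guides together against Renilla, 9 of the 33 genes passed an adjusted p of 0.05 in limma, 8 higher and 1 lower, where 11.0% of all 11550 genes did, 7.77% higher and 3.21% lower. Against mock 6 passed, 5 higher and 1 lower, where 9.004% of all genes did, 6.84% higher and 2.16% lower. Slc2a1, Slc2a3, Slc2a6, Pdk3 and Slc16a1 passed against both, and Gpi1, Aldoc, Slc16a3 and Bnip3 against Renilla and Pkm against mock made 10 in all. Both contrasts use the same guide libraries and are not independent of each other. Fold changes here are differences of log2(FPKM + 1) between group means, a scale that understates changes of genes with low FPKM.

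**Figure D1:**
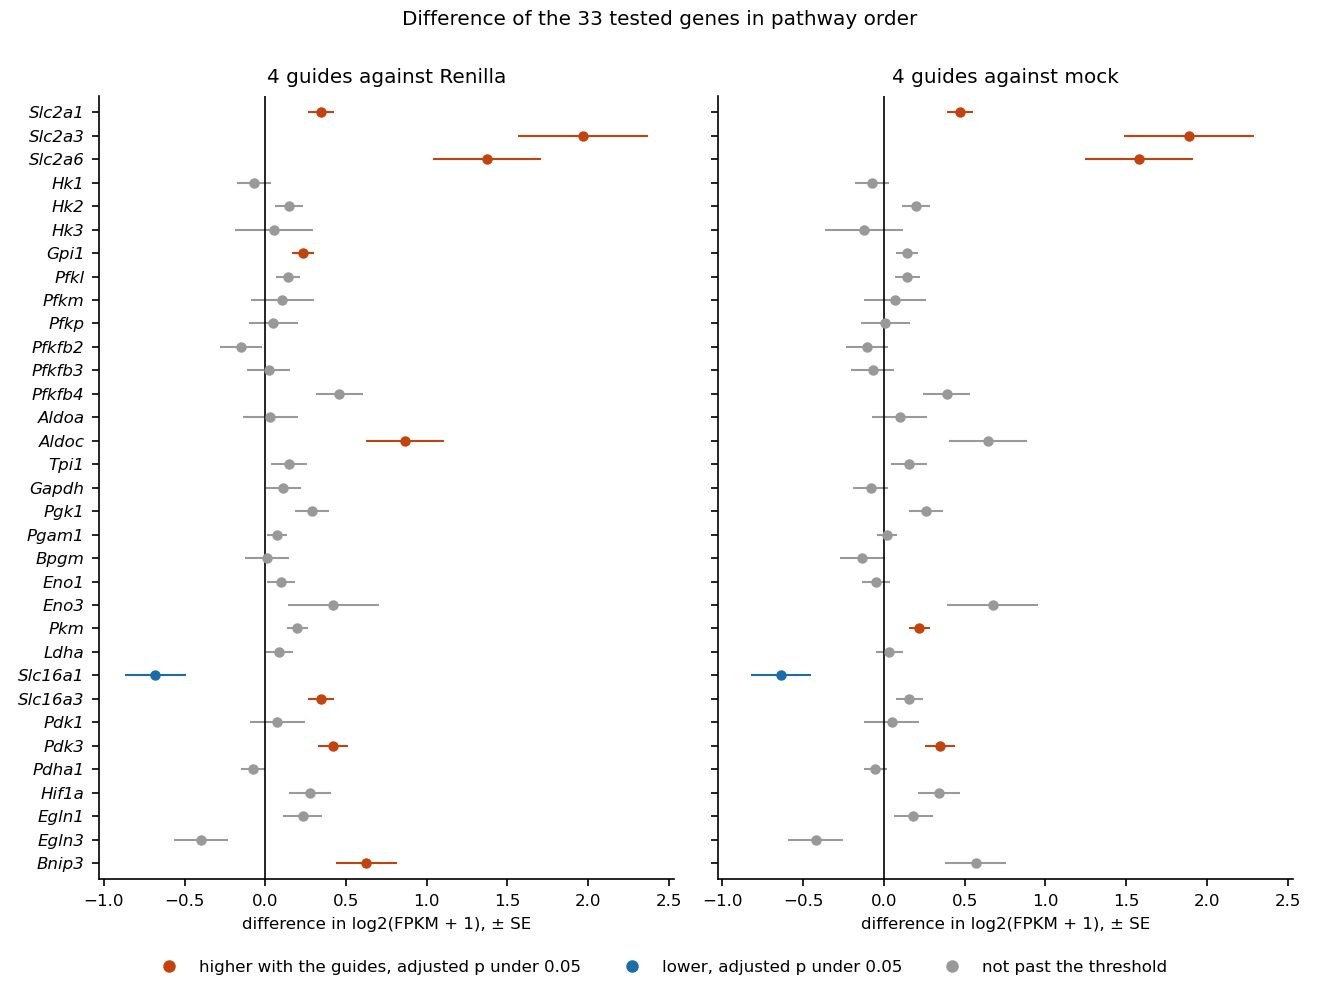
Log2 difference of the 4 Jmjd1c guides together from Renilla (left) and from mock (right) for the 33 genes in pathway order, with bars of 1 standard error; orange marks genes called higher and blue genes called lower at an adjusted p under 0.05. With all libraries the largest difference is that of Slc2a3 in both panels (1.97 and 1.89), and Slc16a1 is the called gene on the negative side (-0.68 and -0.64).

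The median log2 difference of the 33 genes was 0.14 against Renilla and 0.14 against mock, beside -0.03 and -0.02 for all genes tested. Against Renilla 28 genes had a positive difference and 5 a negative one, and against mock 23 were positive and 10 negative. The counts depended on single control libraries. Against Renilla they were 4, 3 and 4 without Renilla 1, 2 or 3, where 7.05%, 7.17% and 8.06% of all genes were called. Against mock they were 3 without any 1 of the mock libraries, where 5.02% to 5.62% of all genes were called. Without e12.3 3 and e21.1 3 they were 11 against Renilla, 9 higher and 2 lower (18.1% of all genes, 11.0% higher and 7.07% lower), and 10 against mock, 7 higher and 3 lower (16.3%, 9.95% and 6.31%). Egln3 and Pfkfb4 then joined against Renilla, and Aldoc, Bnip3, Egln3 and Hk3 against mock.

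By step against Renilla, 3 of 3 glucose transporters and 2 of 13 genes of the preparatory phase and its regulation were higher. Of 7 payoff enzymes, with Bpgm counted among them, 0 passed. Of the 3 lactate genes 1 was higher and 1 lower, of the 3 pyruvate entry genes 1 was higher, and of the 4 hypoxia genes 1 was higher. Against mock the counts were 3, 0 and 1 higher for transport, preparatory and payoff genes, then 1 lower among the lactate genes, 1 higher for pyruvate entry and 0 for hypoxia. All 12 guide libraries lay above all Renilla libraries for 6 of the 33 genes (6.26% of all genes), namely Slc2a1, Slc2a3, Gpi1, Aldoc, Pdk3 and Bnip3. They lay above all mock libraries for 8 of the 33 (6.52%), which add Hk2, Pgk1 and Pkm and lack Gpi1, and above both controls for 5 (4.92%). They lay below all Renilla libraries for 0 of the 33 (2.98%), below all mock libraries for 0 (3.41%) and below both for 0 (1.59%). Without e12.3 3 and e21.1 3, 7 genes lay above all Renilla libraries (8.95%), Slc2a6 being the addition, and 2 below, Slc16a1 and Egln3 (6.38%). The 10 libraries then lay above mock for 9 genes (9.94%) and below it for 5 (8.55%), and on 1 side of both controls for 6 above (7.34%) and 2 below (4.37%).

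**Figure D2:**
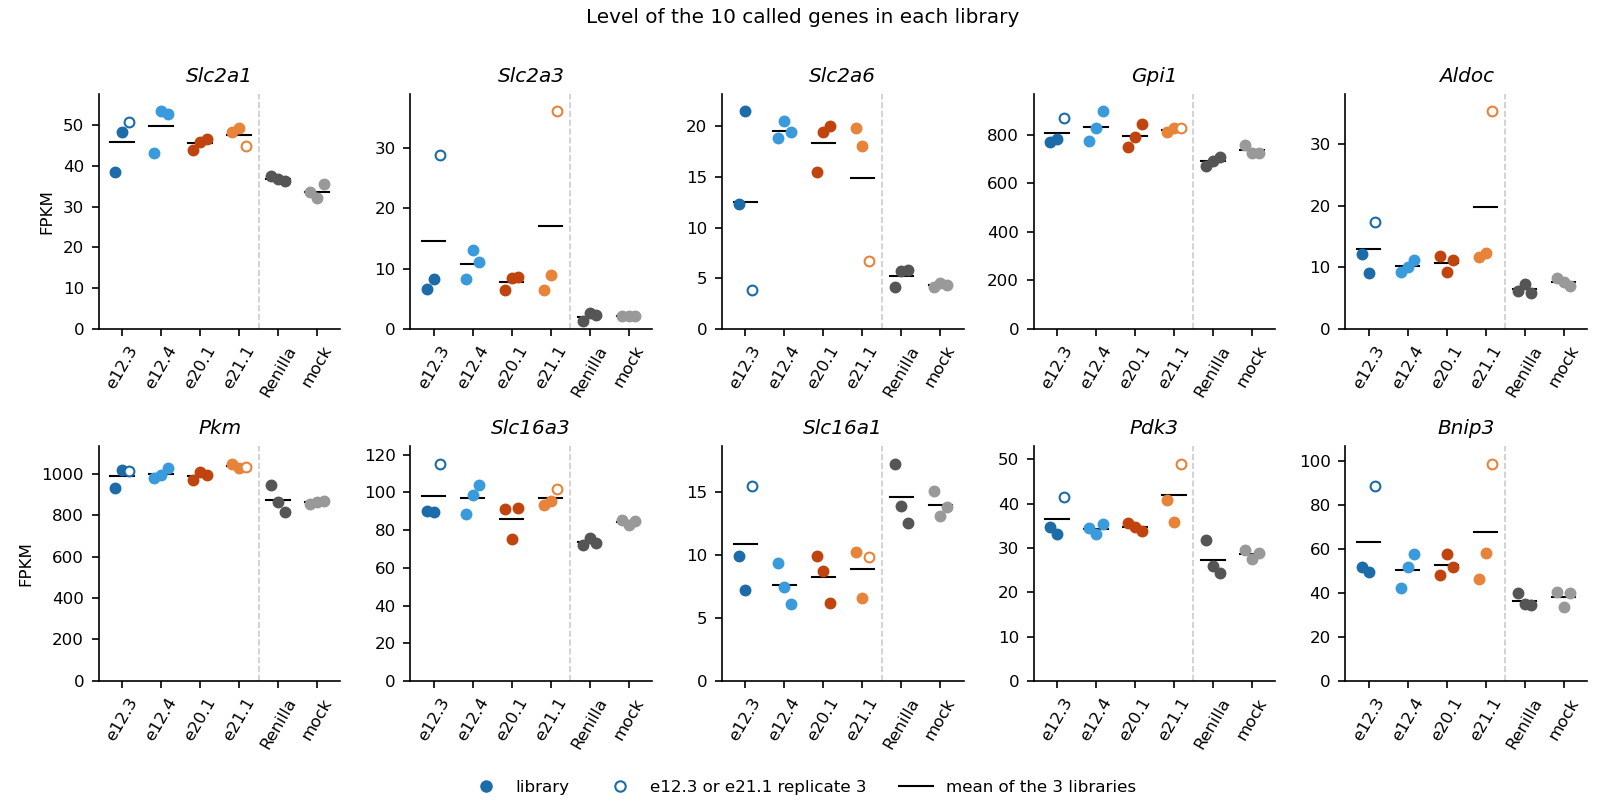
FPKM of the 10 called genes in every library, by guide (from e12.3 on the left to e21.1) and then Renilla and mock; each point is a library, the bar is the mean of 3, and open circles are e12.3 3 and e21.1 3. All 12 guide points of Slc2a1 (38.6 to 53.5) lie above the 6 control points, and the open circles lie far above the other guide points for Slc2a3 and below them for Slc2a6.

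Many glycolytic genes are known hypoxia-inducible factor targets, so their promoters were searched for the core of its binding site. The windows shown are the 250 bases before the start of those called genes for which the RefSeq promoter table (GRCm38.p6) gave a single window holding a core. Each is printed 5′ to 3′ on the strand of its gene, and capitals mark ACGTG or GCGTG or, where the core is on the other strand, CACGT or CACGC. They are Slc2a1 at chr4:119108495-119108744 (plus strand), Slc2a6 at chr2:27027999-27028248 (minus), Slc16a1 at chr3:104638414-104638663 (plus), Slc16a3 at chr11:120948817-120949066 (plus), Pdk3 at chrX:93832151-93832400 (minus) and Bnip3 at chr7:138909507-138909756 (minus).
Slc2a1: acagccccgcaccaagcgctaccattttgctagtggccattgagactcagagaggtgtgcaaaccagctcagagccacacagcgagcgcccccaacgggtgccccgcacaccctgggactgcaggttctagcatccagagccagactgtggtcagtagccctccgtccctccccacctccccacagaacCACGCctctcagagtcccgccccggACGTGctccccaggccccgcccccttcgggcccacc
Slc2a6: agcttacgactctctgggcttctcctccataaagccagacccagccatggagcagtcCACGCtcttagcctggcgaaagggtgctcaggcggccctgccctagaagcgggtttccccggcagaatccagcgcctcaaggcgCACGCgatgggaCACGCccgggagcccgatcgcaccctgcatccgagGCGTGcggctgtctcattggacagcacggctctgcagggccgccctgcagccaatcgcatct
Slc16a1: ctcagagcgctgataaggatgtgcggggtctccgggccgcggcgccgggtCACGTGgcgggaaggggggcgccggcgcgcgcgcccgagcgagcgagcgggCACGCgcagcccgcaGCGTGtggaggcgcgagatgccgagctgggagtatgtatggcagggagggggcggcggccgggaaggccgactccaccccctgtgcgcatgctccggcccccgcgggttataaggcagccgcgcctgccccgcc
Slc16a3: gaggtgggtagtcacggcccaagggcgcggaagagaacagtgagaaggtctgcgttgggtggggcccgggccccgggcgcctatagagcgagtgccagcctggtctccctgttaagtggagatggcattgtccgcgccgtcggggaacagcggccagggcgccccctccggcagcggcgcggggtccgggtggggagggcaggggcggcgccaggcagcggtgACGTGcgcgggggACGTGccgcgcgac
Pdk3: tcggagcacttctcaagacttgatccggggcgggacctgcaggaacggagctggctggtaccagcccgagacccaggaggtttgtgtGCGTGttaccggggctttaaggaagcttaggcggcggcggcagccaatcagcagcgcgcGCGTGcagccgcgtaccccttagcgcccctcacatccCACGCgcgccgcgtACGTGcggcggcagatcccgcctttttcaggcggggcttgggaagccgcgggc
Bnip3: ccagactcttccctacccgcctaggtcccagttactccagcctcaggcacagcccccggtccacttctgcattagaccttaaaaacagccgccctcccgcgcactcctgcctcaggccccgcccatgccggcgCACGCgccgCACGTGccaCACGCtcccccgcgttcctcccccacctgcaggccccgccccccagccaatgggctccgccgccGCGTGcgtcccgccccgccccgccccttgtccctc

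The windows of Slc2a1 and Slc16a3 held 2 cores each, those of Slc2a6, Slc16a1 and Pdk3 4 each, and that of Bnip3 5, where a CACGTG counts on both strands. The genes with these windows include both the lowered Slc16a1 and the raised Slc2a1, Slc2a6, Slc16a3, Pdk3 and Bnip3. Across the list, 35 of 36 genes had 51 windows, and 41 of them (80.4%) held a core in either form. The core was in 56.7% of the 10783 windows of genes with at least 1 FPKM and in 38.6% of all 32851 windows. ACGTG was in 45.1% of the listed windows and in 22.2% of those of genes with at least 1 FPKM, and GCGTG in 52.9% and 45.4% of the same sets. The E-box CACGTG, which contains ACGTG and is bound by MYC, was in 15.7% and 8.42% of them. Of the called genes, Gpi1 had no core in its window, and the other listed genes without one were Bpgm, Eno2 and Tpi1. A match of letters is a description of the window and shows no binding.

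The 3 listed glucose transporter genes rose with the guides. Of the other members of the family in the table at 1 FPKM or more, Slc2a8 had 3.82 to 7.84 FPKM with guides, 3.78 to 3.87 FPKM with Renilla and 3.90 to 4.73 FPKM in mock (log2 difference from Renilla 0.35, adjusted p = 0.110), and Slc2a9 had 9.69 to 17.95 FPKM with guides, 11.4 to 15.1 FPKM with Renilla and 13.7 to 15.8 FPKM in mock (log2 difference 0.04, adjusted p = 0.903). Slc2a1 (chr4:119108711-119137983, plus strand, GENCODE vM21 on GRCm38) encodes GLUT1, the basal glucose transporter of blood cells. It had 38.6, 48.5 and 50.9 FPKM in e12.3, 43.3, 53.5 and 52.9 FPKM in e12.4, 43.9, 46.1 and 46.8 FPKM in e20.1 and 48.4, 49.5 and 44.9 FPKM in e21.1 libraries, against 37.7, 36.7 and 36.3 FPKM in Renilla and 33.6, 32.1 and 35.5 FPKM in mock libraries. Every guide library was above every control library, with e12.3 1 closest. On the log2 scale Slc2a1 differed by 0.34 from Renilla (SE 0.081, adjusted p = 0.0116) and 0.47 from mock (SE 0.081, adjusted p = 0.0012), or 1.28-fold and 1.40-fold in mean FPKM. The call against Renilla ended without Renilla 2 (adjusted p = 0.0552) or Renilla 3 (adjusted p = 0.0557), while that against mock held without any 1 library.

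Slc2a3 (chr6:122727809-122801640, minus strand) encodes GLUT3, a high-affinity transporter of neurons and white blood cells. Its levels were 6.66, 8.27 and 28.8 FPKM in e12.3, 8.31, 13.1 and 11.1 FPKM in e12.4, 6.36, 8.39 and 8.51 FPKM in e20.1 and 6.38, 8.95 and 36.1 FPKM in e21.1 libraries, against 1.28, 2.56 and 2.21 FPKM in Renilla and 2.11, 2.11 and 2.17 FPKM in mock libraries. The lowest guide library stood above the highest control library, and e12.3 3 and e21.1 3 stood above the other 10 guide libraries. With all libraries this was the largest difference of the 33 genes, with a log2 difference of 1.97 from Renilla (SE 0.40, adjusted p = 0.0043) and 1.89 from mock (SE 0.40, adjusted p = 0.0060). In mean FPKM it was 6.23-fold and 5.90-fold, and 4.26-fold and 4.04-fold without those libraries. Leaving out any 1 library kept both calls, with adjusted p up to 0.0396 against Renilla.

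Slc2a6 (chr2:27021363-27027998, minus strand) encodes GLUT6, a family member known from macrophages. It had 12.29, 21.5 and 3.83 FPKM in e12.3, 18.8, 20.5 and 19.4 FPKM in e12.4, 15.5, 19.5 and 20.0 FPKM in e20.1 and 19.8, 18.1 and 6.73 FPKM in e21.1 libraries, against 4.09, 5.75 and 5.81 FPKM in Renilla and 4.13, 4.54 and 4.35 FPKM in mock libraries. The groups overlapped through e12.3 3 alone, which lay below the 6 control libraries, and e21.1 3 was the next lowest guide library. The log2 difference was 1.37 from Renilla (SE 0.33, adjusted p = 0.0135) and 1.58 from mock (SE 0.33, adjusted p = 0.0057). Without those 2 libraries it was 1.64 from Renilla (SE 0.14, adjusted p = 1.5e-06) and 1.85 from mock, beside 1.64 and 1.56 for Slc2a3, and the groups did not overlap. Without Renilla 1 alone the adjusted p was 0.0906.

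The mix of transporter RNA shifted as well. Slc2a1 made up 62.3% ± 4.09 of the summed FPKM of the 3 transporters in the guide libraries (SD, n = 12), against 83.7% ± 3.33 in Renilla and 83.9% ± 0.915 in mock libraries (SD, n = 3 each). The guide libraries ran from 51.2% to 67.1% and did not overlap either control. The exact two-sided permutation p was 0.0022 against each control, the smallest that 455 arrangements allow, and 0.0066 after Benjamini-Hochberg adjustment over 9 families. This test, like those of the other shares, treats the 12 libraries of 4 guides as interchangeable units. It covers scatter among libraries and does not take the guide as the unit. The rest of the transporter RNA was held by different genes in different libraries. Slc2a6 held 24.9% on average in the 10 other guide libraries, against 11.8% in Renilla and 10.8% in mock, but 4.59% in e12.3 3 and 7.68% in e21.1 3. Slc2a3 held 34.5% and 41.2% in those 2 libraries, 11.5% in the other 10, and 4.55% and 5.30% in Renilla and mock.

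**Figure D3:**
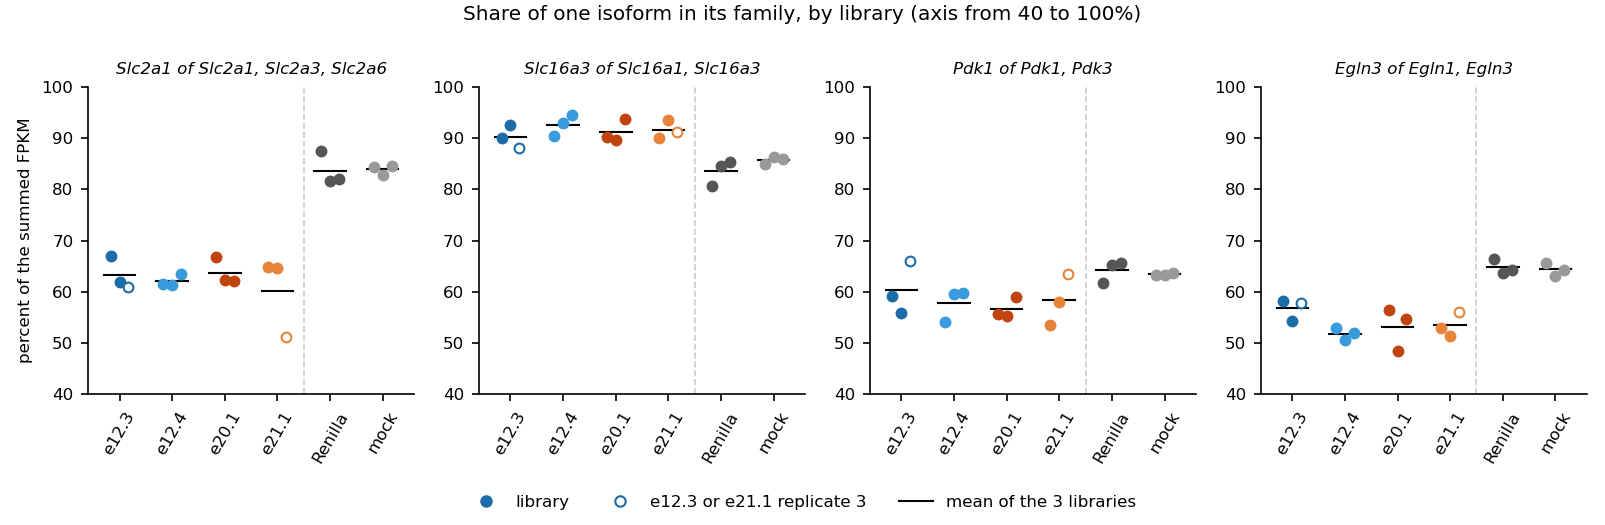
Share of the highest isoform in the summed FPKM of its family, in percent, for Slc2a1 of the glucose transporters, Slc16a3 of the monocarboxylate transporters, Pdk1 of the pyruvate dehydrogenase kinases and Egln3 of the prolyl hydroxylases, by group with guides left of Renilla and mock; the axis runs from 40% to 100%, and open circles are e12.3 3 and e21.1 3. Guide libraries lie below both controls for Slc2a1 and Egln3 and above both for Slc16a3, and overlap them for Pdk1.

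In the preparatory phase, 2 of 13 genes passed against Renilla, Gpi1 and Aldoc. None of the 3 hexokinases, which phosphorylate glucose, passed with all libraries. Hk1, the broadly expressed form, averaged 60.5 ± 8.60 FPKM with guides, 63.3 ± 7.18 FPKM with Renilla and 63.1 ± 1.92 FPKM in mock (SD, n = 12, 3 and 3). Hk2, the form induced by hypoxia, averaged 35.7 ± 2.44, 32.3 ± 5.42 and 30.9 ± 0.42 FPKM in guide, Renilla and mock libraries. Hk3, the hexokinase enriched in myeloid cells, led the family with 134 ± 58.9 FPKM with guides, 121 ± 6.42 FPKM with Renilla and 137 ± 10.9 FPKM in mock. Its spread came from e12.3 3 and e21.1 3, with 238 and 275 FPKM. Without them Hk3 averaged 109 ± 11.3 FPKM with guides, and its log2 difference from mock was -0.32 (adjusted p = 0.0270) and from Renilla -0.15 (adjusted p = 0.304). Hk3 held 56.5% ± 6.31 of hexokinase RNA with guides, 55.9% ± 1.94 with Renilla and 59.2% ± 2.15 in mock, with an exact permutation p of 0.912 against Renilla and 0.514 against mock. With e12.3 3 and e21.1 3 left out that share was 54.05% ± 2.59 with guides, and the exact permutation p was 0.283 against Renilla and 0.014 against mock (adjusted 0.0157).

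Gpi1 (chr7:34201330-34230336, minus strand), which encodes phosphoglucose isomerase, was the core preparatory enzyme called against Renilla. It had 770, 782 and 869 FPKM in e12.3, 776, 830 and 897 FPKM in e12.4, 750, 790 and 845 FPKM in e20.1 and 811, 827 and 830 FPKM in e21.1 libraries, against 672, 694 and 711 FPKM in Renilla and 759, 726 and 724 FPKM in mock libraries. All guide libraries were above Renilla, while e20.1 1 fell below mock 1. Gpi1 had a log2 difference of 0.23 from Renilla (SE 0.068, adjusted p = 0.0379), or 1.18-fold, and 0.14 from mock. Leaving out any 1 Renilla library ended that call, with adjusted p of 0.133, 0.120 and 0.0787, and so did leaving out e12.4 2, e12.4 3, e20.1 3 or e21.1 2, with adjusted p of 0.0541 to 0.0659.

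The 3 phosphofructokinases, which commit the sugar to glycolysis, did not pass. The liver form Pfkl had log2 differences of 0.14 from Renilla (adjusted p = 0.281), the muscle form Pfkm 0.11 (adjusted p = 0.790) and the platelet form Pfkp 0.05 (adjusted p = 0.880). Pfkp had the highest level of the 3, with 107 ± 27.4 FPKM with guides, 101 ± 6.19 FPKM with Renilla and 104 ± 5.34 FPKM in mock, and its share of 54.9% ± 3.59 in guide libraries, against 56.4% ± 5.06 in Renilla libraries, had an exact permutation p of 0.556. The share of Pfkp without e12.3 3 and e21.1 3 was 53.5% ± 1.80 in guide libraries, with an exact permutation p of 0.126 against Renilla, and of 0.0070 (adjusted 0.0090) against mock, whose share was 57.1% ± 1.16. Of the PFKFB enzymes, which set the level of a sugar phosphate that activates phosphofructokinase, Pfkfb4 averaged 7.38 ± 1.98 FPKM with guides, 5.03 ± 1.14 FPKM with Renilla and 5.26 ± 0.39 FPKM in mock. Its log2 difference from Renilla was 0.46 (adjusted p = 0.0570) for the 4 guides and 0.79 for e12.4 alone (adjusted p = 0.0153). Its e12.4 libraries had 7.16, 10.3 and 10.8 FPKM, against 3.95, 4.92 and 6.22 FPKM in Renilla libraries. Pfkfb2 and Pfkfb3 had log2 differences of -0.15 and 0.02.

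Aldoc (chr11:78322968-78327781, plus strand), the minor aldolase of these cells, rose against Renilla. It had 12.2, 9.06 and 17.4 FPKM in e12.3, 9.21, 10.0 and 11.2 FPKM in e12.4, 11.9, 9.18 and 11.2 FPKM in e20.1 and 11.7, 12.2 and 35.3 FPKM in e21.1 libraries, against 6.07, 7.34 and 5.72 FPKM in Renilla and 8.27, 7.51 and 6.92 FPKM in mock libraries. Every guide library exceeded every control library, and e21.1 3 was the highest. Aldoc had a log2 difference of 0.86 from Renilla (SE 0.24, adjusted p = 0.0291) and 0.65 from mock (adjusted p = 0.122). Without e12.3 3 and e21.1 3 it was 0.68 (adjusted p = 3.4e-04) and 0.47 (adjusted p = 0.0067). Leaving out Renilla 1, 2 or 3 gave adjusted p of 0.119, 0.0648 and 0.115.

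Aldoa, the main aldolase, averaged 1305 ± 331 FPKM with guides, 1254 ± 165 FPKM with Renilla and 1193 ± 50.01 FPKM in mock, a log2 difference of 0.03 from Renilla (adjusted p = 0.935). It made up 99.0% ± 0.260 of aldolase RNA in guide libraries, against 99.5% ± 0.101 in Renilla and 99.4% ± 0.083 in mock libraries. The exact permutation p was 0.011 against Renilla (adjusted 0.025) and 0.051 against mock (adjusted 0.091), and without Renilla 1 or Renilla 3 the p against Renilla was 0.0989 and 0.0769. Leaving out e12.3 3 and e21.1 3 gave an Aldoa share of 99.1% ± 0.131 in guide libraries. The exact permutation p was then 0.0035 (adjusted 0.0063) against each control. Tpi1, which interconverts the triose phosphates, had a log2 difference of 0.15 from Renilla (adjusted p = 0.459).

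Of 7 payoff enzymes tested, with the side branch enzyme Bpgm counted among them, 0 passed against Renilla and 1 against mock. Of these enzymes 5 had high levels, and by mean over the 18 libraries Gapdh had 2309 FPKM, Pkm 959, Eno1 894, Pgk1 644 and Pgam1 577 FPKM. Pkm (chr9:59656368-59679375, plus strand), pyruvate kinase, had 932, 1018 and 1015 FPKM in e12.3, 981, 992 and 1027 FPKM in e12.4, 972, 1008 and 993 FPKM in e20.1 and 1049, 1027 and 1031 FPKM in e21.1 libraries, against 947, 863 and 817 FPKM in Renilla and 853, 865 and 869 FPKM in mock libraries. The guide libraries all lay above mock, and Renilla 1 lay among them. The log2 difference was 0.22 from mock (SE 0.065, adjusted p = 0.0491), or 1.16-fold, and 0.20 from Renilla (SE 0.065, adjusted p = 0.0636). The call against mock ended without any 1 of 12 libraries, among them each mock library, with adjusted p up to 0.197, and Pkm was called against Renilla without e20.1 2 (adjusted p = 0.0446) or Renilla 1 (adjusted p = 0.0318).

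Pgk1, the first ATP-yielding enzyme, averaged 684 ± 83.0 FPKM with guides, 558 ± 52.6 FPKM with Renilla and 569 ± 16.8 FPKM in mock, with log2 differences of 0.29 (adjusted p = 0.0992) and 0.26 (adjusted p = 0.164). Gapdh averaged 2313 ± 202, 2159 ± 393 and 2443 ± 97.3 FPKM in guide, Renilla and mock libraries, and its log2 difference from Renilla was 0.11 (adjusted p = 0.583). Eno1 and Pgam1 had log2 differences of 0.10 and 0.07 from Renilla, and Bpgm, which makes the bisphosphoglycerate of red cells, 0.01. The muscle enolase Eno3 was low, with 6.73 ± 3.36 FPKM with guides, 4.48 ± 0.95 FPKM with Renilla and 3.61 ± 0.91 FPKM in mock, and its log2 differences of 0.42 and 0.67 had adjusted p of 0.390 and 0.174. Gene-level values of Aldoa, Gapdh, Pgk1, Pgam1, Ldha and Eno1 are uncertain. The annotation names 2 or 3 pseudogenes for each of the first 5. Eno1b, a near copy of Eno1, had 233 FPKM with guides, 237 with Renilla and 243 in mock. Only pseudogenes named after their gene were counted, so values of the other genes may be uncertain too.

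At the lactate step, the enzyme did not pass and the transporters changed in opposite directions. Ldha, which reduces pyruvate to lactate, averaged 839 ± 73.0 FPKM with guides, 787 ± 41.1 FPKM with Renilla and 817 ± 10.9 FPKM in mock, with a log2 difference of 0.09 from Renilla (adjusted p = 0.563). Slc16a1 (chr3:104638668-104658462, plus strand) encodes MCT1, which carries lactate in either direction. It had 9.94, 7.20 and 15.5 FPKM in e12.3, 9.36, 7.47 and 6.13 FPKM in e12.4, 9.93, 8.77 and 6.17 FPKM in e20.1 and 10.3, 6.57 and 9.84 FPKM in e21.1 libraries, against 17.3, 13.9 and 12.6 FPKM in Renilla and 15.1, 13.1 and 13.9 FPKM in mock libraries. The overlap came from e12.3 3, and the other 11 guide libraries were below the 6 controls. Slc16a1 fell by 0.68 on the log2 scale against Renilla (SE 0.19, adjusted p = 0.0269) and by 0.64 against mock (SE 0.19, adjusted p = 0.0448), and its mean FPKM fell by 38.8% and by 36.3%. The adjusted p was 0.169 without Renilla 1, 0.0808 without Renilla 2, 0.125 to 0.194 without a mock library, and 0.0570 to 0.0689 against mock without e12.3 1, e12.4 2, e12.4 3, e20.1 3 or e21.1 2.

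Slc16a3 (chr11:120948480-120960868, plus strand) encodes MCT4, the lactate exporter of highly glycolytic cells. Its levels were 90.2, 89.5 and 115 FPKM in e12.3, 88.4, 98.9 and 104 FPKM in e12.4, 91.4, 75.1 and 91.8 FPKM in e20.1 and 93.1, 95.6 and 102 FPKM in e21.1 libraries, against 72.3, 76.0 and 73.4 FPKM in Renilla and 85.3, 82.5 and 85.1 FPKM in mock libraries. Guide library e20.1 2 lay within the Renilla range and below the mock libraries, and the other 11 lay above both. The log2 difference was 0.35 from Renilla (SE 0.083, adjusted p = 0.0123), or 1.28-fold, and 0.16 from mock (adjusted p = 0.299). Without Renilla 1 or Renilla 3 the adjusted p against Renilla was 0.0607 and 0.0533. Slc16a3 made up 91.4% ± 1.98 of the RNA of both lactate transporters in guide libraries (SD, n = 12), against 83.5% ± 2.48 in Renilla and 85.7% ± 0.711 in mock libraries (SD, n = 3 each), with an exact permutation p of 0.0022 against each control and 0.0066 after adjustment. The guide libraries, from 88.1% to 94.4%, did not overlap either control.

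Of the genes that gate pyruvate entry into mitochondria, the kinase gene Pdk3 rose. Pdk3 (chrX:93764607-93832201, minus strand) had 34.7, 33.1 and 41.5 FPKM in e12.3, 34.5, 33.3 and 35.3 FPKM in e12.4, 35.7, 34.6 and 33.9 FPKM in e20.1 and 40.9, 35.9 and 49.0 FPKM in e21.1 libraries, against 31.7, 26.0 and 24.3 FPKM in Renilla and 29.6, 27.4 and 28.8 FPKM in mock libraries. All guide libraries lay above all controls. For Pdk3 the log2 difference was 0.42 from Renilla (SE 0.093, adjusted p = 0.0074) and 0.35 from mock (SE 0.093, adjusted p = 0.0268), or 1.35-fold and 1.29-fold. It was not called without Renilla 2 (adjusted p = 0.0521) or Renilla 3 (adjusted p = 0.0656), or against mock without mock 1, 2 or 3 (adjusted p of 0.0774, 0.152 and 0.111).

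Pdk1, the kinase best known as a hypoxia target, averaged 52.8 ± 14.5 FPKM with guides, 48.7 ± 2.35 FPKM with Renilla and 49.7 ± 2.11 FPKM in mock, a log2 difference of 0.07 from Renilla (adjusted p = 0.840). Its share of the RNA of both kinases was 58.3% ± 3.73 in guide libraries, against 64.2% ± 2.15 in Renilla and 63.5% ± 0.264 in mock libraries. The exact permutation p was 0.022 against Renilla (adjusted 0.040) and 0.037 against mock (adjusted 0.084), and without Renilla 2 or Renilla 3 the p against Renilla was 0.0769 and 0.0879. The share of Pdk1 without e12.3 3 and e21.1 3 was 57.0% ± 2.37 in guide libraries, with an exact permutation p of 0.0035 (adjusted 0.0063) against each control. Pdha1, a catalytic subunit of the complex that these kinases inhibit, averaged 83.5 ± 6.75, 88.1 ± 7.98 and 86.4 ± 1.09 FPKM in guide, Renilla and mock libraries, with a log2 difference of -0.08 from Renilla (adjusted p = 0.577).

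Among the oxygen-sensing genes, Bnip3 rose against Renilla. Bnip3 (chr7:138890836-138909519, minus strand) encodes a mitophagy receptor induced by hypoxia. It had 51.8, 49.2 and 88.6 FPKM in e12.3, 42.2, 51.6 and 57.4 FPKM in e12.4, 48.1, 57.7 and 51.7 FPKM in e20.1 and 46.1, 58.1 and 98.6 FPKM in e21.1 libraries, against 39.97, 35.1 and 34.2 FPKM in Renilla and 40.4, 33.6 and 39.98 FPKM in mock libraries. All guide libraries lay above all controls, and e12.3 3 and e21.1 3 were the highest. For Bnip3 the log2 difference was 0.62 from Renilla (SE 0.19, adjusted p = 0.0454) and 0.57 from mock (adjusted p = 0.0805). Without those libraries it was 0.48 (adjusted p = 0.0044) and 0.42 (adjusted p = 0.0107). The call ended without Renilla 1, 2 or 3 (adjusted p of 0.0951, 0.147 and 0.144), and without e12.4 2, e12.4 3 or any 1 e20.1 library (adjusted p of 0.0540 to 0.0709).

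Egln3 (chr12:54178981-54203860, minus strand), a prolyl hydroxylase and itself a known hypoxia target, did not pass with all libraries in limma and passed as lower under other settings. Its levels were 25.6, 19.3 and 35.7 FPKM in e12.3, 19.4, 18.4 and 21.5 FPKM in e12.4, 22.2, 16.1 and 21.8 FPKM in e20.1 and 22.7, 18.9 and 33.4 FPKM in e21.1 libraries, against 34.6, 28.1 and 27.1 FPKM in Renilla and 33.7, 26.2 and 31.4 FPKM in mock libraries. With all libraries the log2 difference was -0.40 from Renilla (SE 0.17, adjusted p = 0.157) and -0.42 from mock (adjusted p = 0.154). Without those 2 it was -0.51 (SE 0.12, adjusted p = 0.0095) and -0.53 (adjusted p = 0.0074), and the 10 remaining guide libraries lay below the 6 controls. With all libraries it was also called lower with the replicate number as a block, with an adjusted p in limma of 0.0441 against Renilla and 0.0396 against mock, and with both controls pooled (adjusted p = 0.0399).

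Egln3 made up 53.8% ± 3.002 of the RNA of Egln1 and Egln3 in guide libraries (SD, n = 12), against 64.8% ± 1.46 in Renilla and 64.4% ± 1.31 in mock libraries (SD, n = 3 each). The guide libraries ran from 48.4% to 58.2% without overlap, the exact permutation p was 0.0022 against each control (adjusted 0.0066), and e12.3 3 and e21.1 3 lay within that range. Egln1, the main oxygen sensor of the family, averaged 19.4 ± 3.35 FPKM with guides, 16.2 ± 1.202 FPKM with Renilla and 16.8 ± 1.26 FPKM in mock, with a log2 difference of 0.23 from Renilla (adjusted p = 0.252). Hif1a, the factor's regulated subunit, averaged 72.5 ± 11.2, 59.1 ± 4.33 and 56.7 ± 7.79 FPKM in guide, Renilla and mock libraries, with log2 differences of 0.28 (adjusted p = 0.209) and 0.34 (adjusted p = 0.136).

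The guides were also set against the controls one at a time. Against Renilla, e12.3 had 1 call of the 33 (3.20% of all genes), Slc2a3 with a log2 difference of 2.12, and e20.1 had 1 (5.68%), Slc2a6 with 1.64. Guide e12.4 had 6 (7.09%), namely Slc2a3, Slc2a6, Pfkfb4, Slc2a1 and Slc16a3 higher and Slc16a1 lower by -0.86. Guide e21.1 had 6 (9.51%), all higher: Slc2a3 at 2.24, Aldoc at 1.32, Bnip3 at 0.80, Pdk3 at 0.60, Slc16a3 at 0.39 and Slc2a1 at 0.36. Library e21.1 3 was the highest of its group for all of these but Slc2a1, and without it e21.1 had 4 calls (6.91%). Against mock the counts were 2 for e12.3 (2.94%), 4 for e12.4 (6.48%), 2 for e20.1 (5.32%) and 4 for e21.1 (7.26%), and each of these 4 sets held Slc2a1. For e12.4, whose libraries deviated together with the control libraries of the same number, a replicate block gave 8 calls against Renilla (10.4% of all genes), Egln3 and Gpi1 being added, and 7 against mock (9.32%), Slc16a1, Egln3 and Hif1a being added.

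Without e12.3 3 and e21.1 3 the counts against Renilla were 3 (6.14%), 11 (13.4%), 7 (11.2%) and 8 (10.8%) in guide order from e12.3 to e21.1, and each of these 4 sets held Slc2a3, Slc2a6 and Aldoc. Their log2 differences ran from 1.51 to 1.97 for Slc2a3, from 1.49 to 1.74 for Slc2a6 and from 0.60 to 0.82 for Aldoc. The counts for single guides changed when single libraries were left out. Against Renilla those of e12.3 were 0 without Renilla 2 or Renilla 3 and 2 without e12.3 1. Those of e12.4 were 0 without e12.4 2 or e12.4 3 and 2, 1 and 2 without Renilla 1, 2 and 3. Those of e20.1 were 0 without any 1 of its own libraries, Renilla 2 or Renilla 3, and those of e21.1 were 3 without e21.1 2, Renilla 2 or Renilla 3. Against mock those of e12.3 were 0 without e12.3 2 or any 1 mock library and 1 without e12.3 3. Those of e12.4 were 2 without e12.4 2, e12.4 3 or any 1 mock library, and those of e20.1 were 0 without e20.1 2, e20.1 3 or any 1 mock library. Those of e21.1 were 6 without e21.1 1, 2 without e21.1 3 or mock 3 and 1 without mock 2. With 1 library left out the share of all genes called against Renilla ran from 2.18% to 3.39% for e12.3, 4.25% to 5.52% for e12.4, 3.46% to 4.49% for e20.1 and 6.74% to 8.88% for e21.1. Against mock it ran from 1.49% to 2.94% for e12.3, 3.83% to 4.21% for e12.4, 3.01% to 4.74% for e20.1 and 4.48% to 6.42% for e21.1.

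Differences among the 4 guides were tested directly. In limma 0 of the 33 genes and 0 of the 11550 genes tested passed (0%), and 1 of the 33, Pfkfb4, had an unadjusted p under 0.05. Leaving out e12.3 3 and e21.1 3, the same test called 3 of the 11550 genes (0.0260%). With no filter on low values it called 2 of 23899 genes (0.0084%). Between Renilla and mock 0 of the 33 genes passed in limma (0% of all genes), and 0 of the 33 had an unadjusted p under 0.05.

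Libraries e12.3 3 and e21.1 3 stood above the other 16 for 16 of the 33 genes (15.9% of all genes) and below them for 0 (11.4% of all genes). The 16 were Slc2a3, Hk1, Hk3, Pfkm, Pfkp, Pfkfb3, Aldoa, Aldoc, Tpi1, Eno1, Eno3, Pdk1, Pdk3, Hif1a, Egln1 and Bnip3, so they include core enzymes that were not called between guides and controls. Relative to the mean of replicates 1 and 2 of the same guide, 28 of the 33 genes were higher in both libraries and 3 lower in both, and the median shift on the log2 scale was 0.36 in e12.3 and 0.31 in e21.1, beside 0.03 and 0.01 for all genes. Since these libraries were singled out by their values, no test is given.

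**Figure D4:**
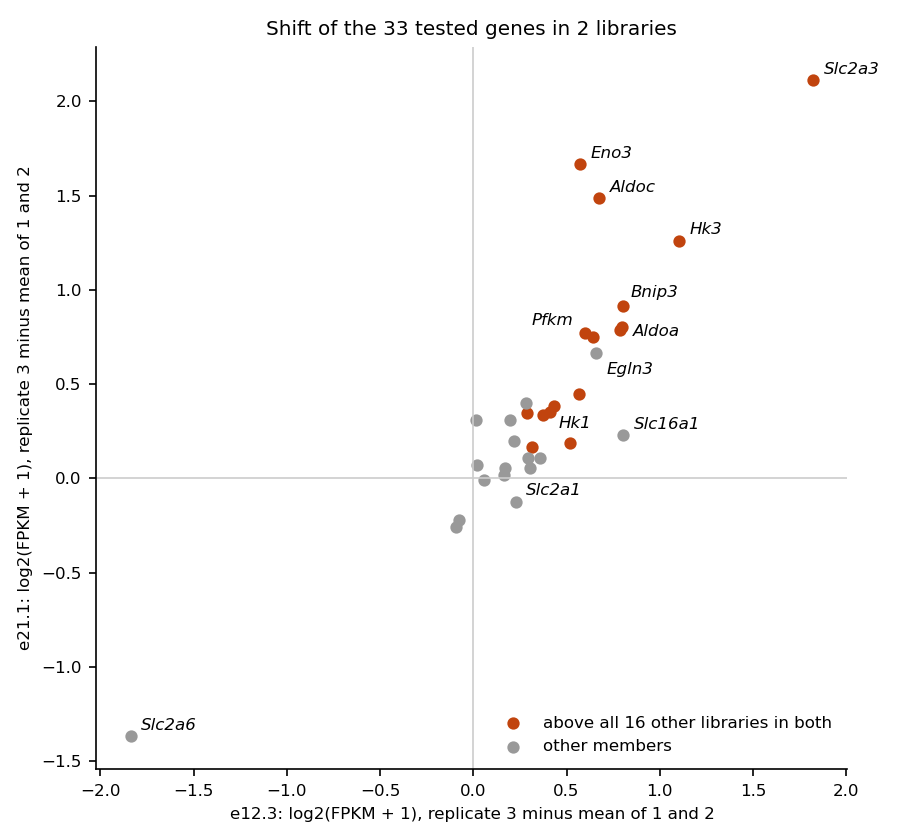
Difference of replicate 3 from the mean of replicates 1 and 2 in log2(FPKM + 1), for e12.3 (horizontal axis) and e21.1 (vertical axis); each point is one of the 33 genes and orange points are the 16 genes that stand above the other 16 libraries in both. Slc2a3 lies farthest up and to the right, and Slc2a6 lies far down and to the left (-1.84 and -1.37).

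Hk3 had 238 FPKM in e12.3 3, against 111 FPKM on average in e12.3 1 and 2, and 275 FPKM in e21.1 3, against 114 FPKM in e21.1 1 and 2. Aldoa had 1996 FPKM against 1157 FPKM in e12.3 and 2019 FPKM against 1169 FPKM in e21.1. Pdk1 had 80.6 against 46.2 FPKM and 85.1 against 48.4 FPKM, and Pfkp 165 against 105 FPKM and 161 against 95.4 FPKM. All 4 were higher in both libraries, while Slc2a6 was lower, with 3.83 against 16.9 FPKM and 6.73 against 19.0 FPKM. In the same libraries the late neutrophil marker sum was 981 and 695 FPKM, against 122.6 to 599 FPKM in the other guide libraries. The primary granule sum was 5034 and 3852 FPKM, against 1711 to 3087 FPKM. The sum of 9 genes of the ATF4 stress response was 1106 and 908 FPKM, against 519 to 764 FPKM in the other guide libraries. In Renilla that sum was 771 to 915 FPKM and in mock 693 to 766 FPKM, so e21.1 3 lay within the Renilla range. The proliferation sum was 1128 and 1029 FPKM, against 1218 to 1430 FPKM in the other guide libraries, 1184 to 1456 FPKM in Renilla and 1215 to 1368 FPKM in mock. The monocyte and macrophage sum was 171 and 364 FPKM, against 235 to 335 FPKM, the mast cell and basophil sum 51.4 and 39.9 FPKM, against 69.8 to 89.1 FPKM, and the lymphoid sum 11.2 and 10.3 FPKM, against 3.12 to 4.93 FPKM. The sum of the 8 erythroid genes in the table was 81.3 and 65.5 FPKM, against 115 to 148 FPKM. The part of these sums in the shift of the glycolytic genes was not tested.

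Neighbouring pathways were read from lists drawn up with earlier results of these data known, and are set beside the 7.77% of all genes that were higher and the 3.21% that were lower against Renilla. Of 11 tested further genes of glycolysis, glucose and pyruvate transport, 0 passed against Renilla in limma with all libraries or without e12.3 3 and e21.1 3, and 0 of 9 pentose phosphate genes passed with all libraries. The pyruvate dehydrogenase complex and its phosphatases gave 1 lower of 7, Dld, the shared dehydrogenase subunit, with 73.0 ± 4.84 FPKM with guides, 90.5 ± 3.49 FPKM with Renilla and 89.2 ± 3.33 FPKM in mock (log2 difference from Renilla -0.31, adjusted p = 0.0032). Of 16 oxidative phosphorylation genes 0 were higher and 4 lower, Ndufs1, Sdha, Atp5a1 and Uqcrc1, with log2 differences of -0.28 to -0.29, and the median of the list was -0.19 beside -0.03 for all genes. The serine branch, which leaves glycolysis before the payoff ends, had 2 lower of 6, Shmt2 at -0.32 and Psat1 at -0.39, and 5 lower without e12.3 3 and e21.1 3, where 7.07% of all genes were lower.

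Storage and reversal of the pathway had called genes too. Pygl, the glycogen phosphorylase of liver and myeloid cells, averaged 261 ± 18.5 FPKM with guides, 166 ± 20.7 FPKM with Renilla and 168 ± 12.01 FPKM in mock (log2 difference from Renilla 0.65, adjusted p = 2.4e-05), and Uap1 of the hexosamine branch was lower by -0.29, which made 1 higher and 1 lower of 12. Fbp1, the gluconeogenic bisphosphatase that opposes phosphofructokinase, averaged 9.24 ± 2.67, 2.73 ± 0.162 and 2.63 ± 0.192 FPKM in guide, Renilla and mock libraries (log2 difference from Renilla 1.40, adjusted p = 9.2e-04), and G6pc3, which releases free glucose, was lower by -0.32, which made 1 higher and 1 lower of 3. After leaving out e12.3 3 and e21.1 3 these lists had 1 higher and 3 lower, and 1 higher and 2 lower, beside 11.0% of all genes higher and 7.07% lower.

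Of 21 further genes of the hypoxia pathway, 4 were higher and 0 lower against Renilla (7.77% of all genes were higher). Cited2, a brake on the hypoxia-inducible factor, averaged 149 ± 11.7 FPKM with guides, 89.2 ± 4.26 FPKM with Renilla and 91.8 ± 2.05 FPKM in mock (log2 difference from Renilla 0.73, adjusted p = 2.5e-06). Bhlhe40, a transcriptional repressor, averaged 35.9 ± 17.4, 8.43 ± 1.196 and 8.94 ± 0.907 FPKM in guide, Renilla and mock libraries (1.88, adjusted p = 5.3e-05), and Ndrg1, a stress-induced gene, 14.3 ± 4.41, 5.15 ± 1.11 and 4.15 ± 0.789 FPKM in those groups (1.29, adjusted p = 1.5e-04). Plin2, which coats lipid droplets, was the fourth. The median log2 difference of the 21 was 0.08 with all libraries and -0.02 without e12.3 3 and e21.1 3, beside -0.03 for all genes in each case. Of 8 glucose-responsive and MYC network regulators 2 were higher. Txnip, which restrains glucose uptake, averaged 47.1 ± 9.72 FPKM with guides, 33.4 ± 0.545 FPKM with Renilla and 28.2 ± 0.883 FPKM in mock (log2 difference from Renilla 0.46, adjusted p = 0.0377), and Mxd1, which opposes MYC, 6.22 ± 0.798, 3.49 ± 0.366 and 3.85 ± 0.530 FPKM in guide, Renilla and mock libraries (0.68, adjusted p = 6.5e-04).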

How the data were processed

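RNA of 18 libraries was measured by poly(A) sequencing with a directional kit, per the labels' protocols. The submitters' processing notes name bcl2fastq 2.22.0.422, Salmon 0.13.0, DESeq2 1.22.1, R 3.5.3 and the build mm10. The authors deposited a table of FPKM values for 23899 genes and 18 libraries. Separate copies of single libraries differed from it by at most 3.3e-06 FPKM. How FPKM was computed from the transcript estimates, and on which annotation, is not given in the sources used here. Estimated depth was read from the steps between low values of 1473 genes and bounds precision only roughly. Libraries were grouped by their labels.

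Tests covered genes whose mean reached 1 FPKM and used log2(FPKM + 1) in limma 3.58.1 (trend, in R 4.3.3), with 1 mean for each of the 6 groups and Benjamini-Hochberg adjustment over all 11550 genes. Shares of isoforms and Jmjd1c were tested with exact two-sided permutation tests over libraries, with the guide libraries pooled over the 4 guides. The limma procedure was tested on simulated data with independent scatter in each library. These held no correlation between libraries of the same number and no libraries that stood apart, so that test does not cover either. The members, the lists and the tests were chosen with earlier results of these data known. Genes called for the 4 guides together against either control are given in full, up to 10, with the highest isoform of each family described. From neighbouring lists up to 4 genes with the smallest p are named. Over 45 pairs of libraries with the same replicate number the correlation of deviations from group means had a median of 0.117 (-0.248 to 0.763), with 26 over 0.1, against -0.042 over 90 pairs with other numbers, 11 of them over 0.1. All 3 pairs were over 0.1 for 4 of 15 pairs of groups, which include e12.4 with either control, so the number was used as a block in an alternative only, given beside the counts of e12.4. Coordinates come from GENCODE vM21, promoter windows from the RefSeq table. Alternatives were another pseudocount, filters, scaling, a replicate block, both controls pooled, the groups compared alone and libraries left out. No reads were used here.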

Additional observations from a re-analysis of the deposited data

How the results depend on the processing

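Counts of called genes among the 33 depended on the setting, as did those of all genes, and the cause was not tested. Percentages in brackets are the share of all genes tested that was called in the same setting. For the 4 guides against Renilla (9 called), 5 were called with no filter on low values (5.48%) and 5 with the groups compared fitted alone (8.70%). With both controls pooled 14 were called (18.3%), and 15 (19.1%) without e12.3 3, e21.1 3, Renilla 1 and e20.1 2, a choice of 4 libraries made after seeing the data. Without e12.3 3 and e21.1 3 the count was 11 (18.1%). For e12.3, with 1 call, it was 0 with no filter (1.38%), 0 with the groups alone (0.693%), 2 with a replicate block (4.76%), 3 with upper-quartile scaling (3.35%), 2 with pooled controls (4.40%), 3 without the 2 libraries (6.14%) and 7 without the 4 (8.51%). For e12.4, with 6, it was 11 without the 2 libraries (13.4%) and 15 without the 4 (15.99%). For e20.1, with 1, it was 0 with no filter (2.72%), 2 with the groups alone (3.73%), 4 with a replicate block (8.56%), 4 with pooled controls (8.29%), 7 without the 2 libraries (11.2%) and 7 without the 4 (10.4%). For e21.1, with 6, it was 0 with the groups alone (2.87%) and 12 without the 4 libraries (15.1%).

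For the 4 guides against mock (6 called) the count was 10 without the 2 libraries (16.3%) and 15 without the 4 (25.9%). For e12.3, with 2 calls, it was 1 with no filter (1.13%) and 0 with the groups alone (0.771%). For e12.4, with 4, it was 2 with no filter (3.004%), 12 with the groups alone (20.07%), 7 with a replicate block (9.32%), 7 without the 2 libraries (12.26%) and 13 without the 4 (22.3%). For e20.1, with 2, it was 4 with a replicate block (7.84%), 7 without the 2 libraries (10.6%) and 8 without the 4 (13.0%). For e21.1, with 4, it was 1 with the groups alone (3.75%), 7 with a replicate block (10.3%) and 8 without the 4 libraries (16.1%). With the replicate number as a block 12 genes were called against Renilla (15.7%) and 9 against mock (12.6%) for the 4 guides. Egln3, Hif1a and Pfkfb4 were added against Renilla (adjusted p in limma of 0.0441, 0.0134 and 0.0374), and Bnip3, Egln3 and Hif1a against mock (adjusted p of 0.0386, 0.0396 and 0.0043).

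With 1 library left out at a time, the counts against Renilla ran from 3 to 10 for the 4 guides (7.05% to 13.0%), 0 to 2 for e12.3, 0 to 4 for e12.4, 0 to 1 for e20.1 and 3 to 6 for e21.1. Against mock they ran from 3 to 7 for the 4 guides (5.02% to 11.0%), 0 to 2 for e12.3, 2 to 3 for e12.4, 0 to 2 for e20.1 and 1 to 6 for e21.1. Differences in share from Renilla, in percentage points, then ran from -0.74 to 1.30 for Hk3 among hexokinases, -4.43 to 0.27 for Pfkp among phosphofructokinases, -0.52 to -0.40 for Aldoa among aldolases and -7.18 to -5.16 for Pdk1 among the kinases, the lowest without the 2 libraries together. The hexokinase difference was -1.87 without the 2 libraries and -1.03 with pooled controls. For the Eno1 share among enolases the exact permutation p with all libraries was 0.264 against Renilla (adjusted 0.396) and 0.108 against mock (adjusted 0.16). Without the 2 libraries it was 0.238 against Renilla and 0.0070 against mock (adjusted 0.0090). Against pooled controls the enolase difference was -0.27 (exact permutation p = 0.0362). The log2 difference of Jmjd1c ran from -0.42 to -0.22, and was -0.26 with pooled controls (exact permutation p = 0.0187).

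Some genes that did not pass changed sign. Against Renilla the log2 difference with pooled controls was -0.035 for Hk3, -0.023 for Pfkfb3 and -0.062 for Bpgm. Without the 2 libraries it was -0.15 for Hk3, -0.0085 for Pfkm, -0.065 for Pfkp, -0.037 for Pfkfb3, -0.099 for Aldoa, -0.026 for Bpgm and -0.059 for Pdk1. Without the 4 libraries it was -0.076 for Hk3, -0.084 for Pfkp, -0.0021 for Aldoa, -0.068 for Gapdh and -0.014 for Pdk1. With 1 library left out it ran from -0.14 to 0.016 for Hk1, -0.053 to 0.11 for Hk3, -0.043 to 0.29 for Pfkm, -0.012 to 0.095 for Pfkp, -0.021 to 0.080 for Pfkfb3, -0.034 to 0.14 for Aldoa, -0.045 to 0.22 for Gapdh, -0.13 to 0.25 for Bpgm and 0.0074 to 0.12 for Pdk1.

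Against mock the log2 difference without the 2 libraries was -0.046 for Pfkm, -0.11 for Pfkp, -0.035 for Aldoa, -2.1e-05 for Ldha and -0.086 for Pdk1. Without the 4 it was -0.013 for Pfkm, -0.082 for Pfkp, -0.043 for Aldoa, -0.020 for Ldha and -0.075 for Pdk1. With 1 library left out it ran from -0.0014 to 0.16 for Pfkm, -0.053 to 0.051 for Pfkp, -0.020 to 0.057 for Pgam1, -0.019 to 0.097 for Pdk1 and 0.0092 to 0.050 for Ldha. FPKM values carry no read counts, so counting error at low levels could not be modelled.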
